A study of Mus musculus with 6 samples.

Results

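The genes examined here encode the enzymes by which adipocytes make glycerol 3-phosphate and join it to fatty acids as triglyceride. They are the 10 genes Pck1, Gpd1, Gpam, Gpat3, Agpat2, Lpin1, Dgat1, Dgat2, Mogat1 and Mogat2, taken by symbol from a table of 40428 features, and all 10 were found once and passed the filter on low counts. Subcutaneous white adipose tissue came from 3 control mice of the genotype flox/flox, carrying floxed Nampt, and from 3 ANKO mice (adipocyte-specific Nampt knockout), whose adiponectin-Cre transgene deletes the gene in adipocytes, all on the C57BL/6J background. All mice were fed regular chow and kept at room temperature, and neither their age nor whether controls carried Cre is stated in the sources used here. Nampt, the NAD salvage enzyme that was deleted, stood at 83.6 to 93.0 CPM (a read count scaled to the size of its library) in controls and 47.0 to 50.2 CPM in ANKO mice.

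Triglyceride is built on a glycerol backbone. Adipocytes obtain this backbone as glycerol 3-phosphate, which GPD1 makes from dihydroxyacetone phosphate, because they phosphorylate free glycerol poorly. Dihydroxyacetone phosphate comes from glucose by glycolysis or from pyruvate and amino acids through PCK1, the route called glyceroneogenesis. Acyltransferases of the GPAT and AGPAT families then add fatty acids, lipins remove the phosphate, and DGAT1 or DGAT2 adds the last fatty acid, while the MGAT enzymes, encoded by Mogat1 and Mogat2, reach diacylglycerol from monoacylglycerol without glycerol 3-phosphate.

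Of these 10 genes, 2 fell in ANKO tissue, Pck1 and Gpat3, and 1 rose, Mogat2, at an adjusted p under 0.05 (edgeR quasi-likelihood test, Benjamini-Hochberg over 19272 genes). Among all genes tested 1.1% fell, 0.488% rose and 1.59% changed in either direction. The 3 ANKO values lay entirely below the 3 control values for 4 of the 10 genes (Pck1, Gpat3, Gpam and Mogat1) and entirely above them for Mogat2, against 10.2% and 9.19% of all genes. The median log2 fold change of the 10 was -0.39, and that of all genes tested was 0.001. Gpd1 and the genes of the steps after the first acylation, Agpat2, Lpin1, Dgat1 and Dgat2, had overlapping groups.

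**Figure D1:**
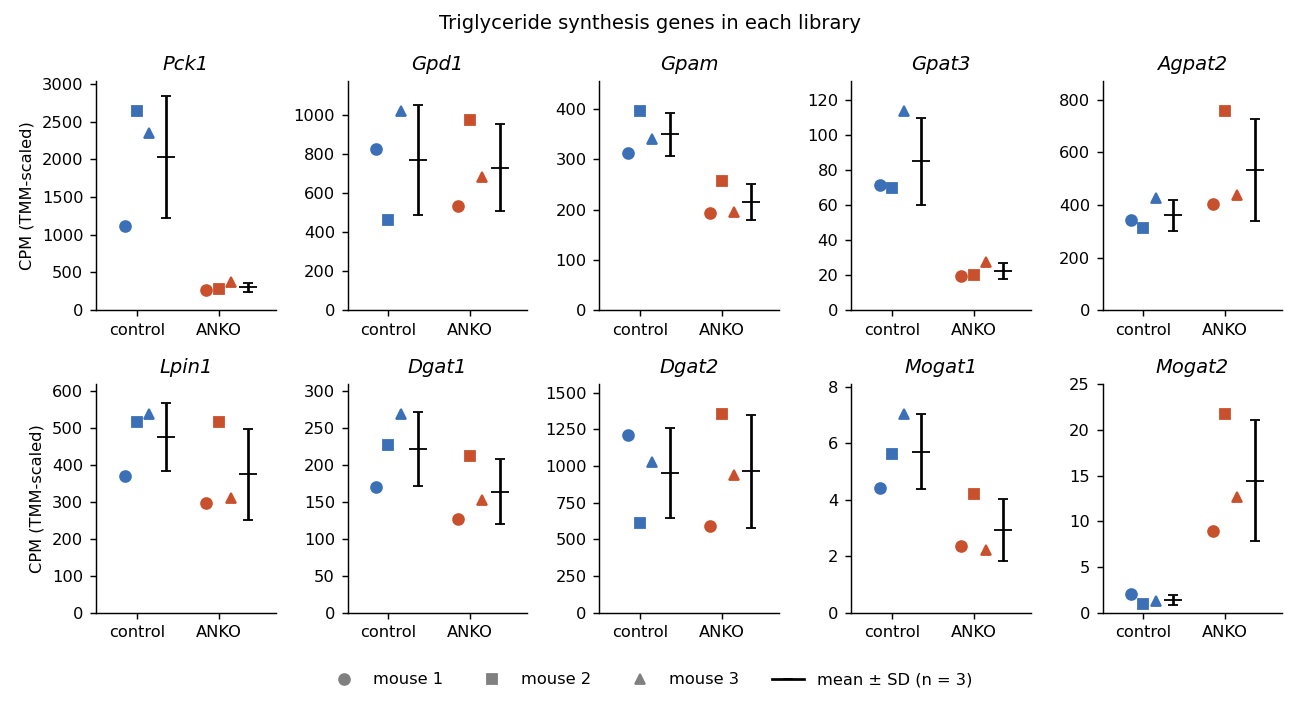
Normalised count (CPM, linear axis from 0) of each of the 10 genes in 3 control (blue) and 3 ANKO (orange) libraries. Marker shape gives the mouse number within its group, which is not taken to pair mice, and the black bar is the mean ± SD. Pck1 and Gpat3 lie lower and Mogat2 higher in every ANKO library, while Gpd1 and Dgat2 spread over the same range in both groups.

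The 2 promoters shown are those of the genes that fell, since Pck1 has long been studied as a promoter answering to cyclic AMP. RefSeq promoter windows on build GRCm38.p6 were matched for 6 of the 10 genes (7 windows). Mogat2, the gene that rose, and Gpd1, Dgat1 and Dgat2 had no window and were not searched. Each stretch holds no base of an exon of its gene in the basic transcript set of GENCODE M21. For Gpat3, exons outside that set were not checked. Each stretch runs 5′ to 3′ on the plus strand and has in capitals the letters ACGTCA, the core of a cyclic AMP response element (CRE). The Pck1 stretch is chr2:173152823-173153047 and the Gpat3 stretch is chr5:100845979-100846129. The Pck1 stretch ends just before the annotated gene, while the Gpat3 stretch lies within the annotated span of Gpat3, between the first exon of 1 transcript that starts further upstream and the first exons of the others.
Pck1: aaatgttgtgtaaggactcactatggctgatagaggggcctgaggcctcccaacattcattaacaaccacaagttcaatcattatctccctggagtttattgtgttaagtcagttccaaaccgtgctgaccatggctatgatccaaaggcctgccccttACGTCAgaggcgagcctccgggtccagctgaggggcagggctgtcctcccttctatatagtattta
Gpat3: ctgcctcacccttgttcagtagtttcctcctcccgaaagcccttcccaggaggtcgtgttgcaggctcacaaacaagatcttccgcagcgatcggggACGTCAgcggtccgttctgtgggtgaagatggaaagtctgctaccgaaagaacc
The ACGTCA match began 91 bases upstream of the RefSeq start in Pck1 and 153 bases upstream in Gpat3. In the 250 bases before the start, on either strand, ACGTCA also occurred in 1 of the 2 Gpam windows and in none of the windows of Agpat2, Lpin1 and Mogat1, and it occurred in 6.5% of all 32851 RefSeq windows. The nuclear receptor half-site AGGTCA (14% of all windows) was found in 1 Gpam window and the Lpin1 window, and the C/EBP-type TTGCNNAA (9.6%) in no window of these 6 genes. The letters are described as sequence only, since no binding was measured.

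Pck1 and Gpd1 act before the acylation steps, Pck1 in glyceroneogenesis and Gpd1 in the last reaction to glycerol 3-phosphate from either source. Pck1 (chromosome 2, 173153048 to 173159273, plus strand) encodes cytosolic phosphoenolpyruvate carboxykinase, which turns oxaloacetate into phosphoenolpyruvate. It stood at 1114, 2644 and 2348 CPM in controls 1, 2 and 3 and at 263, 282 and 372 CPM in ANKO 1, 2 and 3. The highest ANKO value was 0.334 of the lowest control, and control 1 was the low library of its group. Pck1 fell 6.65-fold (log2 fold change -2.73, 95% confidence interval -3.56 to -1.90, edgeR adjusted p = 0.0189). The call depended on single libraries: it was kept without control 1 (adjusted p = 0.00215) and lost without control 2 (0.0574), control 3 (0.0816), ANKO 1 (0.0784), ANKO 2 (0.121) or ANKO 3 (0.0798), while the log2 fold change stayed between -3.03 and -2.50. The call was also lost with no filter on low counts (adjusted p = 0.0692).

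Gpd1 (chromosome 15, 99717515 to 99725005, plus strand), the cytosolic glycerol 3-phosphate dehydrogenase, showed no such separation. Its values were 826, 463 and 1019 CPM in controls and 535, 971 and 679 CPM in ANKO. The lowest of the 6 values was control 2, the library with the most Pck1, and the groups overlapped fully. The log2 fold change was -0.08 with a 95% interval of -0.90 to 0.74 (edgeR adjusted p = 0.962), so a change of up to about that size in either direction is not excluded, and the sign turned without control 3 (0.19) or ANKO 1 (0.12). On the per-length scale (CPM per kilobase of annotated exon, RPKM), Pck1 exceeded Gpd1 in each control, with ratios of 1.16, 4.93 and 1.99. In ANKO tissue Gpd1 exceeded Pck1 in each mouse, with Pck1 over Gpd1 at 0.425, 0.251 and 0.474.

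The first acylation of glycerol 3-phosphate is carried out by GPAT enzymes, of which Gpam encodes a mitochondrial form and Gpat3 and Gpat4 the forms of the endoplasmic reticulum. A further GPAT gene, Gpat2, averaged 5.15 ± 0.688 CPM in controls and 4.84 ± 1.03 CPM in ANKO and is not part of the shares below. Gpat3 (chromosome 5, 100845713 to 100899102, plus strand) stood at 71.5, 69.8 and 114 CPM in controls and at 19.6, 20.1 and 27.5 CPM in ANKO. The highest ANKO library was at 0.394 of the lowest control. Gpat3 fell 3.81-fold (log2 fold change -1.93, 95% interval -2.49 to -1.36, edgeR adjusted p = 0.0158), and the call was lost without ANKO 1 (adjusted p = 0.0721) or ANKO 2 (0.095). Gpat3 shares 1052 of its 3502 exon bases with the antisense gene 4930458D05Rik, whose counts were 97, 110 and 193 in controls and 32, 67 and 49 in ANKO. Whether the counting used strand is not stated, and reads of the 2 genes cannot be told apart over those bases.

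Gpam (chromosome 19, 55067268 to 55127238, minus strand) stood at 312, 396 and 341 CPM in controls and at 193, 256 and 195 CPM in ANKO. The groups did not overlap, but the adjusted p of 0.0606 (edgeR) missed the threshold at a log2 fold change of -0.70 (95% interval -1.03 to -0.38). It passed without ANKO 2 (adjusted p = 0.041), with DESeq2 (0.000445), with upper-quartile scaling (0.0463) and with no low-count filter (0.0125). Gpat4 stood at 107, 174 and 204 CPM in controls and 98.5, 111 and 99.6 CPM in ANKO (log2 fold change -0.65, edgeR adjusted p = 0.28). Only control 1 came within the ANKO range, and without that library Gpat4 passed the test (log2 fold change -0.87, adjusted p = 0.0198). Of the summed per-length level of Gpam, Gpat3 and Gpat4, Gpat3 made up 24.5%, 18.9% and 28.6% in controls and 11.4%, 9.46% and 15.1% in ANKO. The share of Gpat3 was therefore lower in every ANKO mouse than in any control.

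Agpat2, Lpin1 and the DGAT genes carry out the later steps. Agpat2 (chromosome 2, 26593057 to 26604417, minus strand), the main adipocyte enzyme for the second acylation and a gene of inherited lipodystrophy, was at 343, 310.4 and 426 CPM in controls and at 404, 757 and 436 CPM in ANKO. ANKO 2 stood far above the other 5 libraries and ANKO 1 lay within the control range. The log2 fold change was 0.57 (95% interval -0.05 to 1.18, edgeR adjusted p = 0.435). It was 0.22 without ANKO 2, within a range of 0.22 to 0.74 over the 6 fits that left out a library. Agpat2 shares 64 of 2130 exon bases with Egfl7, an endothelial gene on the other strand with 1341 to 1885 counts per library. Per length, Agpat2 over Gpam was 3.43, 2.45 and 3.91 in controls and 6.57, 9.25 and 6.98 in ANKO. These ratios did not overlap between groups, although neither gene passed the test. Gpam by itself already lay lower in every ANKO mouse, so the ratio is no separate result. How often ratios of other gene pairs separate was not examined.

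Lpin1 (chromosome 12, 16535669 to 16610966, minus strand) encodes the phosphatidate phosphatase lipin 1, which yields diacylglycerol and whose loss causes lipodystrophy in mice. Lpin1 was at 369, 515 and 539 CPM in controls and 297, 516 and 310 CPM in ANKO (log2 fold change -0.34, 95% interval -0.93 to 0.25, edgeR adjusted p = 0.661). ANKO 2 matched the 2 higher controls, and the other ANKO mice lay below all controls.

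Dgat1 (chromosome 15, 76502015 to 76511953, minus strand) and Dgat2 (chromosome 7, 99153658 to 99182719, minus strand) encode unrelated proteins that both complete triglyceride. Dgat1 was at 169.8, 226 and 269 CPM in controls and 126, 212 and 152 CPM in ANKO (log2 fold change -0.44, 95% interval -1.0 to 0.12, edgeR adjusted p = 0.518). Here too ANKO 2 was the library inside the control range. Dgat2 was at 1211, 613 and 1028 CPM in controls and 591, 1358 and 942 CPM in ANKO (log2 fold change 0.02, 95% interval -0.88 to 0.92, edgeR adjusted p = 0.992). The highest library was 1.97 times the lowest among controls and 2.30 times among ANKO mice, and the sign of the Dgat2 difference changed with the library left out (-0.31 without ANKO 2, -0.22 without control 2). Per length, Dgat2 made up 72.9% to 87.6% of the summed Dgat1 and Dgat2 level in controls and 82.3% to 86.4% in ANKO, which overlapped.

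Mogat2 was the gene that rose, while Mogat1 was lower in each ANKO mouse without passing the test. Mogat2 (chromosome 7, 99219084 to 99238619, minus strand), known as the main MGAT of the small intestine, was at 2.01, 1.01 and 1.24 CPM in controls (46, 20 and 24 counts) and at 8.91, 21.8 and 12.7 CPM in ANKO (212, 504 and 273 counts). The lowest ANKO library was at 4.42 times the highest control. Mogat2 rose 10.1-fold (log2 fold change 3.33, 95% interval 2.36 to 4.30, edgeR adjusted p = 0.0134). The call was lost without control 2 (adjusted p = 0.0722), control 3 (0.0653) or ANKO 3 (0.0595) and with limma-voom (0.0663), at log2 fold changes of 2.91 to 3.68 over the 6 fits that left out a library.

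Mogat1 (chromosome 1, 78510991 to 78538173, plus strand) was at 4.42, 5.64 and 7.06 CPM in controls and 2.35, 4.2 and 2.23 CPM in ANKO, from 48 to 137 counts a library. Its groups did not overlap, yet ANKO 2 came close to control 1, and the gene did not pass the test (log2 fold change -0.96, 95% interval -1.67 to -0.25, edgeR adjusted p = 0.218). Mogat1 shares 200 of 1558 exon bases with BC035947 on the other strand, which had 55 to 101 counts. Of the summed per-length level of Mogat1 and Mogat2, Mogat2 made up 27.9%, 13.2% and 12.9% in controls and 76.3%, 81.5% and 82.8% in ANKO. Mogat1 was thus the more abundant transcript of the pair in each control and Mogat2 in each ANKO mouse. Mogat2 and Dgat2, which belong to 1 protein family, are neighbours on chromosome 7, on the same strand with 36364 bases and no annotated gene between them, and their log2 fold changes were 3.33 and 0.02.

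**Figure D2:**
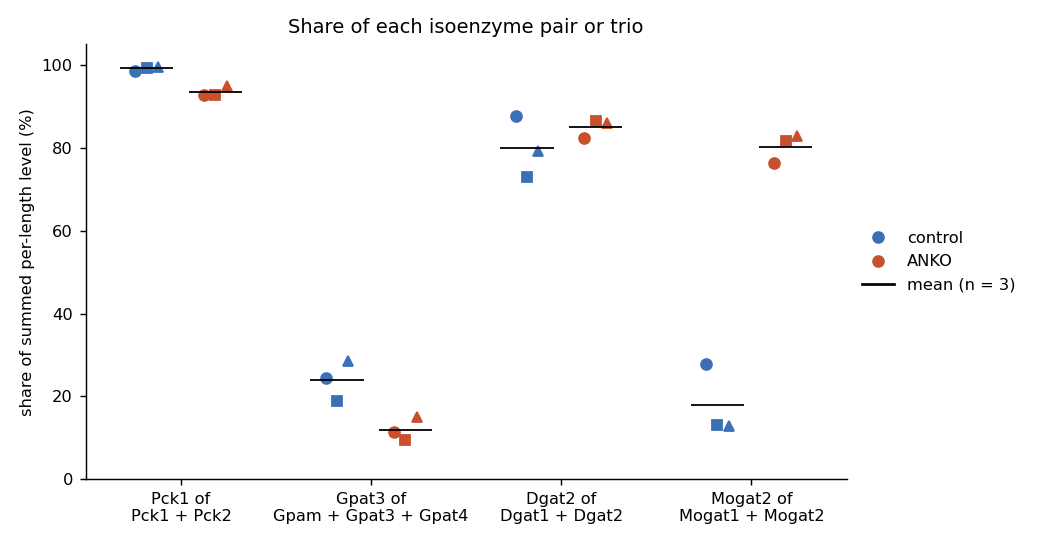
Share (%) that one gene makes up of the summed per-length level (RPKM) of enzymes with a like reaction, in 3 control (blue) and 3 ANKO (orange) libraries, with marker shape for the mouse number and a line for the mean. Mogat2 is at 12.9% to 27.9% of its pair in controls and 76.3% to 82.8% in ANKO, while the Dgat2 shares overlap.

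Ordered by RPKM, Pck1 was the most abundant of the 10 in controls (594 ± 237, SD, n = 3), followed by Dgat2 (308 ± 99.3), Gpd1 (259.9 ± 95.5) and Agpat2 (169 ± 28.0). Neighbours in the order of these 4 overlapped over the 3 mice. Dgat1 (72.5 ± 16.3), Gpam (52.5 ± 6.37) and Lpin1 (49.1 ± 9.50) came next and overlapped each other in that order, followed without overlap by Gpat3 (24.3 ± 7.22), Mogat1 (3.66 ± 0.847) and Mogat2 (0.774 ± 0.288).

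In ANKO tissue Dgat2 (313 ± 124 RPKM), Agpat2 (250 ± 91.6) and Gpd1 (246 ± 75.0) led and overlapped, and Pck1 was the fourth (89.2 ± 17.0). Mogat2 (7.89 ± 3.62) stood beside Gpat3 (6.39 ± 1.26), and Mogat1 (1.88 ± 0.709) was the least abundant. Pck1 alone accounted for 24.6%, 52.0% and 38.1% of the summed RPKM of the 10 genes in controls and for 10.2%, 5.93% and 11.1% in ANKO. Without Pck1 the sum was 940 ± 206 RPKM in controls and 949 ± 323 in ANKO, a difference far smaller than the spread within either group.

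The libraries differed in what else they held. ANKO 2 had the highest ANKO value for 8 of the 10 genes, all but Pck1 and Gpat3, and ANKO 1 the lowest for 9, all but Mogat1. Tissue was whole fat, so fewer adipocytes and less of a transcript per adipocyte cannot be told apart. Of 12 adipocyte markers, all detected, 2 fell (Adipoq, log2 fold change -1.39, and Plin1, -1.24; 1.1% of all genes fell) with a median of -0.78. DESeq2 called 6 of the 12 lower and limma-voom 2, 9 had an unadjusted p under 0.05 (12.9% of all genes) and 7 had ANKO values entirely below the controls (10.2% of all genes). Their summed level was 11781 to 18711 CPM in controls and 6866, 11418 and 9571 CPM in ANKO 1, 2 and 3. Of 14 skeletal muscle markers, 13 were tested and none passed with edgeR, DESeq2 or limma-voom or had an unadjusted p under 0.05, at a summed 1576 to 9914 CPM in controls and 19021, 3310.1 and 113 CPM in ANKO 1, 2 and 3. With the muscle markers as a covariate the log2 fold changes were -2.84 for Pck1, -1.99 for Gpat3 and 3.29 for Mogat2, with adjusted p = 0.0334, 0.0445 and 0.0421.

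Markers of immune cells rose in the same comparison: 3 of 9 macrophage markers (Adgre1, Gpnmb and Trem2; summed level 582 to 636 CPM in controls and 784 to 1027 CPM in ANKO) and 4 of 5 mast cell markers (Mcpt4, Cma1, Tpsb2 and Cpa3), against 0.488% of all genes. DESeq2 called 5 of the 9 macrophage markers and limma-voom 2. Of the 9, 8 had an unadjusted p under 0.05 (12.9% of all genes). Also 8 of the 9 had ANKO values entirely above the controls (9.19% of all genes). DESeq2 and limma-voom both called the same 4 mast cell markers. None of the tested endothelial (6), fibroblast (6), mammary epithelium (7), lymphocyte (5) or brown and beige adipocyte (6) markers passed with edgeR. Of these, in the same order, 2, 2, 0, 1 and 2 had an unadjusted p under 0.05 (12.9% of all genes). DESeq2 called the fibroblast gene Dcn higher and the brown fat gene Cox8b lower, and limma-voom called none. ANKO values lay entirely below the controls for 3 of the 6 endothelial and 1 of the 5 lymphocyte markers (10.2% of all genes). They lay entirely above for 1 of the 6 fibroblast and 2 of the 7 mammary markers (9.19% of all genes). Of the 6 brown and beige markers, 2 had ANKO values entirely above the controls and 1, Cox8b, entirely below, against the same 9.19% and 10.2%. The 2 above were Ucp1, the uncoupling protein of brown fat, and Cidea, a lipid droplet gene. Ucp1 was at 0, 1.66 and 1.24 CPM in controls and 2.61, 7.8 and 5.02 CPM in ANKO. Cidea was at 9.2, 15.5 and 22.4 CPM in controls and 23.0, 34.4 and 23.7 CPM in ANKO. Neither passed (edgeR adjusted p = 0.395 for each). The 2 brown and beige markers with an unadjusted p under 0.05 were Cox8b and Dio2, both lower in ANKO. Cox8b averaged 27.9 ± 8.41 CPM in controls and 14.2 ± 4.47 CPM in ANKO (edgeR adjusted p = 0.242). Dio2 averaged 4.06 ± 2.48 CPM in controls and 1.54 ± 0.354 CPM in ANKO (edgeR adjusted p = 0.259). Of the 6 log2 fold changes, 3 were negative and 3 positive. The 7 tested mammary markers summed to 137 to 1093 CPM in controls and 427 to 689 CPM in ANKO. Krt8, Krt18 and Epcam had the highest control means among them (245, 211 and 74.2 CPM). The milk genes Csn2 (0 to 12 counts a library) and Wap (2 to 8 counts) were not tested. Brown and beige markers summed to 45.3 to 88.3 CPM in controls and 57.5 to 86.6 CPM in ANKO. The part of these cell types in the changes of Pck1, Gpat3 and Mogat2 was not tested.

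Of 57 other genes around the pathway, 55 were tested, 1 fell and none rose, a share near the 1.59% of all genes that changed, with a median log2 fold change of -0.05. DESeq2 called 2 lower and 1 higher, and 13 of the 55 had an unadjusted p under 0.05 with edgeR, against 12.9% of all genes. ANKO values lay entirely below the controls for 9 of the 55 (10.2% of all genes) and entirely above for 2 (9.19% of all genes). The gene edgeR called was Foxo1, a transcription factor known to drive Pck1 in liver, at 145, 155 and 143 CPM in controls and 102, 102 and 103 CPM in ANKO. Foxo1 fell by 0.52 on the log2 scale (edgeR adjusted p = 0.0152) and was not called without control 2 (0.0611), ANKO 1 (0.0656), ANKO 2 (0.0553) or ANKO 3 (0.0845), or with the muscle covariate (0.0522). It was 1 of 14 transcription regulators listed, of which 5 had an unadjusted p under 0.05 (12.9% of all genes). Of the 14, 4 (Foxo1, Nr3c1, Nr1h3 and Ppargc1a) had ANKO values entirely below the controls (10.2% of all genes). The other gene with an unadjusted p under 0.05 was Cebpa, whose groups overlapped. Cebpa averaged 757 ± 152 CPM in controls and 493 ± 120.2 CPM in ANKO (log2 fold change -0.62, edgeR adjusted p = 0.251). Pparg, the nuclear receptor that drives Pck1 in fat, averaged 118 ± 25.2 CPM in controls against 82.9 ± 21.6 CPM in ANKO mice (log2 fold change -0.51, adjusted p = 0.43).

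Among 9 genes supplying glycerol 3-phosphate or glycerol, none passed with edgeR or limma-voom. An unadjusted p under 0.05 was found for 3, Pck2, Gpd1l and Gk (12.9% of all genes). ANKO values lay entirely above the controls for 2, Pck2 and Gk (9.19% of all genes). They lay entirely below for 1, Gpd1l (10.2% of all genes). The log2 fold changes of Gk and Gpd1l were 0.43 and -0.29 (edgeR adjusted p = 0.367 and 0.194). The smallest p was that of Pck2, the mitochondrial PEPCK, at 34.8, 39.7 and 28.9 CPM in controls and 47.5, 50.03 and 46.8 CPM in ANKO. All ANKO values of Pck2 were above all controls, opposite to Pck1, with a log2 fold change of 0.48 (edgeR adjusted p = 0.119, DESeq2 adjusted p = 0.0318). Pck1 made up 98.6% to 99.5% of the summed RPKM of Pck1 and Pck2 in controls and 92.7% to 94.8% in ANKO. The glycerol channel Aqp7 was at 117 ± 43.9 and 73.5 ± 21.7 CPM (log2 fold change -0.66, edgeR adjusted p = 0.517).

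None of the 9 tested of 11 other acyltransferases passed with edgeR, DESeq2 or limma-voom, and 1, Gpat4, had an unadjusted p under 0.05 (12.9% of all genes). Awat1 and Dgat2l6, with at most 2 counts in a library, were not tested. By the same 3 tools none of 7 phosphatidate phosphatases and lipin regulators passed, and 0 had an unadjusted p under 0.05 (smallest p for Ctdnep1, a lipin phosphatase, log2 fold change 0.14, edgeR adjusted p = 0.604). None of 12 phosphatidate and diacylglycerol branch enzymes, diacylglycerol kinases among them, passed by these tools either. Of the 12, 3 had an unadjusted p under 0.05 (12.9% of all genes). ANKO values lay entirely below the controls for 3 (10.2% of all genes) and entirely above for 0. The smallest p was that of Cept1, a choline and ethanolamine phosphotransferase (log2 fold change -0.42, edgeR adjusted p = 0.134). Of 4 droplet assembly genes none passed with edgeR or limma-voom, and the one with the smallest p was Bscl2, which encodes seipin, the protein that shapes nascent lipid droplets. Bscl2 was at 148, 164 and 180 CPM in controls and 83.9, 121 and 97.0 CPM in ANKO, without overlap (log2 fold change -0.70, edgeR adjusted p = 0.0608), and it passed without ANKO 2 (0.0367), with DESeq2 (0.00081), with upper-quartile scaling (0.0499) and with no low-count filter (0.0158).

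**Figure D3:**
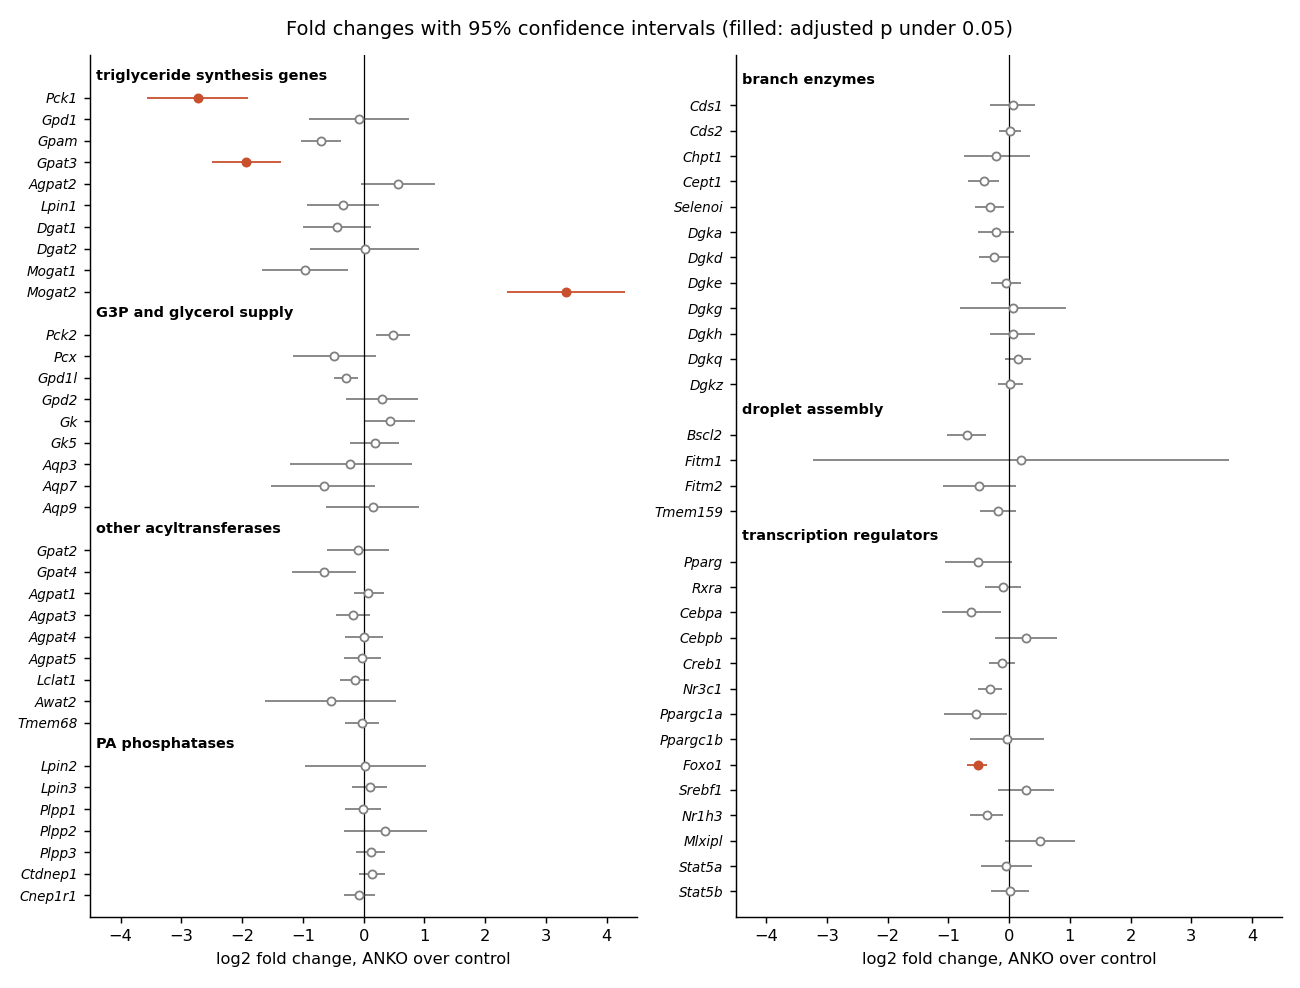
Log2 fold change of ANKO over control (horizontal axis) with its 95% confidence interval for the 10 triglyceride synthesis genes and 55 other genes around the pathway, with 3 mice per group; filled orange points have an adjusted p under 0.05 (edgeR). Pck1, Gpat3, Mogat2 and Foxo1 are the filled points, and the interval of Dgat2 runs from -0.88 to 0.92.

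**Figure D4:**
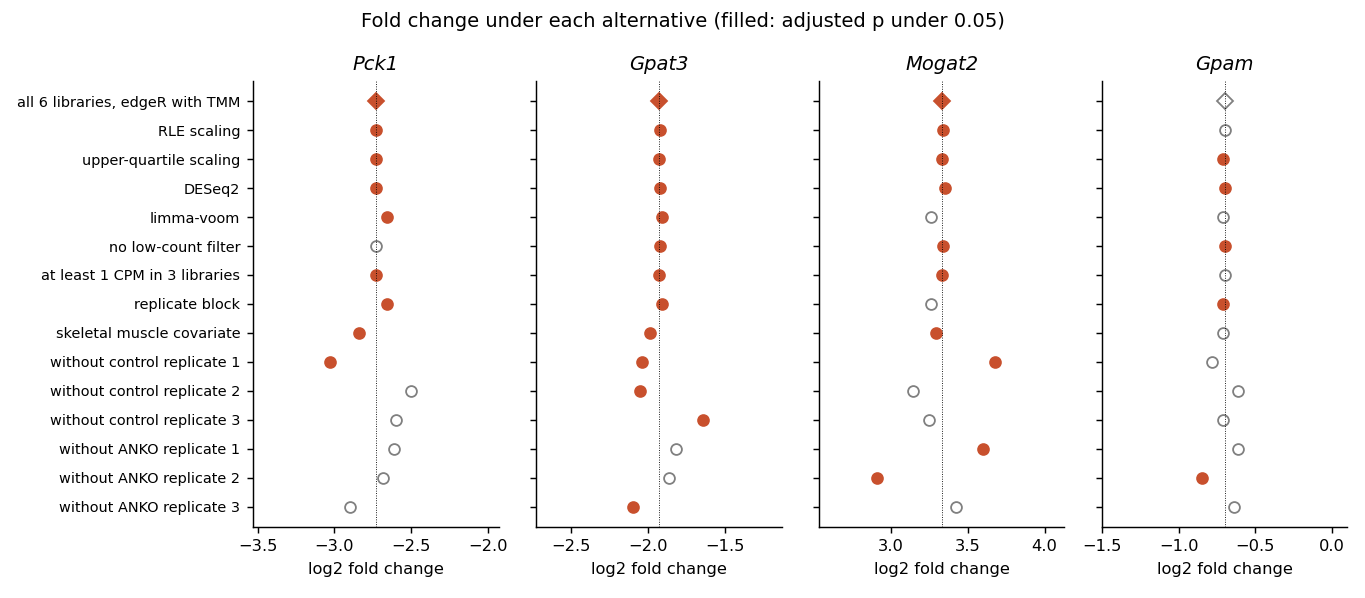
Log2 fold change of 4 genes (horizontal axes, of equal width and centred on the value with all 6 libraries) under each alternative analysis; filled points have an adjusted p under 0.05. Pck1 keeps a value of -3.03 to -2.50 but its call in only 1 of the 6 fits without a library, Gpat3 keeps its call in 4, Mogat2 in 3 and Gpam passes in 1.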

How the data were processed

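The authors deposited raw counts of reads for each gene symbol, and each column was matched to its mouse by title. STAR 2.0.4b, Subread, featureCounts 1.45 and build GRCm38 are named in the submitters' processing notes; annotation and strand setting were not stated. Of 40757 lines, 329 exact repeats were removed. Library totals were 19748962 to 23860596 counts. Features were kept by filterByExpr (minimum count 10, minimum total 15), leaving 19272, scaled by TMM and tested with the edgeR 4.0.16 quasi-likelihood F test (robust) in R 4.3.3; limma 3.58.1 and DESeq2 1.42.0 were alternatives. The labels do not say whether mice shared a litter or cage. Adjusted p-values cover all genes tested. RPKM used the union of GENCODE M21 exons, and gene positions are from that annotation (GRCm38). The test was checked on simulated data with 50 genes changed at each fold. It called 8% of 1.5-fold, 54% of 2-fold, 90% of 4-fold and 96% of 8-fold changes, and 10 unchanged genes. The changed genes were drawn at random, so these rates describe a typical gene. The median standard error of log2 fold changes was 0.186 over all genes. Of the 10 genes only Gpam was below it (0.143), and Mogat2 was the highest (0.414). The rates may be lower for genes with larger standard errors. A gene that did not pass may therefore still have changed by a moderate fold. The 10 genes, the other lists and the alternatives were chosen with earlier results of these data known. Genes named are Nampt, the 10, and from each list the genes called (at most 4) or the one with the smallest p. Aqp7, Gpat2, Pparg, Cebpa, Nr3c1, Nr1h3, Ppargc1a, Dcn, Cox8b, Dio2, Ucp1, Cidea, Lpl and Fabp4 were named after their values were seen. The same holds for Gpd1l, Gk, Krt8, Krt18, Epcam, Csn2 and Wap. From the marker lists up to 3 examples were planned, with Cpa3 added as the fourth called.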

Additional observations from a re-analysis of the deposited data

How the results depend on the processing

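Under the 14 alternatives to the edgeR analysis, 115 of 140 fold changes of the 10 genes kept their direction and side of the threshold, 13 calls were lost, 5 gained and 7 values, all of Gpd1 or Dgat2 and none called, changed sign. The Gpd1 value was 0.19 without control 3 and 0.12 without ANKO 1, within a range of -0.34 to 0.19 over the 6 fits that left out a library; the Dgat2 value was 0.0 with limma-voom, -0.01 with the replicate block, -0.03 with the muscle covariate, -0.22 without control 2 and -0.31 without ANKO 2, within a range of -0.31 to 0.29. Of the 10 genes, 0 rose with limma-voom and 0 with the replicate block. Over all genes, DESeq2 called 371 higher and 480 lower, no low-count filter 167 higher, the replicate block 62 higher, and the muscle covariate 50 higher and 112 lower, against 94 higher and 212 lower. Of the other pathway genes, 2 were lower with upper-quartile scaling, DESeq2 or no low-count filter and 0 with the muscle covariate, and 1 was higher with DESeq2. Leaving out 1 library gave 20 to 107 genes higher and 55 to 221 lower, 0 to 1 of the 10 genes higher and 0 to 2 lower, and 0 to 2 other pathway genes lower. The cause was not tested. With the longest transcript as length, an alternative chosen after seeing the data, 18 of 20 positions in the order of levels were the same, Gpam and Lpin1 exchanging places in controls. The replicate numbers were not taken to pair mice, since the labels state no pairing. Deviations from the group means correlated at 0.07, -0.03 and -0.04 between same-numbered mice, and not every mouse correlated best with its own number. With 3 mice per group these values cannot show whether mice shared a litter or cage. The replicate block changed 2 calls among the 10 genes, losing Mogat2 (edgeR adjusted p = 0.0766) and gaining Gpam (edgeR adjusted p = 0.0319). Depth limits Mogat1 and Mogat2 most, with 20 to 46 counts of Mogat2 in controls.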

Other observations

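A scaling chosen after seeing the data expressed each gene per 1000 CPM of the 12 summed adipocyte markers, some of which fell themselves, so a gene that kept its level has a higher ratio in ANKO. On this scale Pck1 was at 94.5, 168 and 125 CPM in controls and 38.3, 24.7 and 38.9 CPM in ANKO. Gpat3 was at 4.44 to 6.11 CPM in controls and 1.76 to 2.87 CPM in ANKO. Both lay lower in every ANKO mouse on this scale. The share of all genes whose groups do not overlap on this scale was not computed. Whether either gene fell within adipocytes was not tested. The sum is weighted to markers of high level, such as Lpl and Fabp4, at means of 3257 and 2989.5 CPM in controls. Their log2 fold changes were -0.57 and -0.68, against -1.39 for Adipoq at 894 CPM in controls. Ratios to other choices of markers may therefore differ and were not examined. Gpam, at 18.2 to 26.5 and 20.4 to 28.1 CPM, and Mogat1, at 0.36 to 0.377 and 0.233 to 0.368 CPM, then overlapped between the groups. Agpat2 was higher in every ANKO mouse (45.6 to 66.3 against 19.8 to 29.1 CPM), as were Gpd1 (70.9 to 85.0 against 29.5 to 70.1 CPM) and Mogat2 (1.30 to 1.91 against 0.0642 to 0.171 CPM). Dgat1, which like Dgat2 encodes an enzyme of the last step, stood at 14.4 CPM in each of the 3 controls (SD 0.0196). It was at 18.3, 18.6 and 15.9 CPM in ANKO 1, 2 and 3, without overlap. These ratios carry no test.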
